A study of Mus musculus with 6 samples.

Results

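Short-term hematopoietic stem cells (ST-HSCs) were compared with long-term hematopoietic stem cells (LT-HSCs) from the same marrow pools, in WT and in ING4-/- mice. The samples were 4 of the 6 bulk RNA-seq libraries of the study, WT LT-HSC, WT ST-HSC, ING4-/- LT-HSC and ING4-/- ST-HSC, with 1 library each. Both populations were sorted from lineage-depleted bone marrow as Lin- Sca1+ cKit+ (LSK) CD48- CD150+ cells, and CD34 separated the CD34- LT-HSCs from the CD34+ ST-HSCs. Each library came from marrow pooled from 8 to 10 mice, with 1000 to 10000 cells sorted. WT mice were C57BL/6 controls given as 8 to 12 weeks old, and the ING4-/- mice lack the tumor suppressor Inhibitor of Growth 4, a chromatin reader of the ING family, with no age given for this sort. The labels name no treatment for either genotype. The other libraries, WT MPP and ING4-/- MPP, held CD34+ CD150- multipotent progenitors from the same kinds of pool.

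The members of the comparison were the 9957 of 49315 genes that had at least 10 counts in all 4 libraries. Genes that differed in the same direction in WT and in ING4-/- are reported. Since each population had 1 pool per genotype, the genotypes stood in as the replicates (n = 2 libraries per population). The p-values set the ST-HSC to LT-HSC difference against the spread of that ratio between the 2 genotypes, drawn toward the spread shared between genes. They do not measure the spread between pools of the same genotype.

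In the hematopoietic hierarchy, LT-HSCs divide rarely and are mostly held out of the cell cycle, while ST-HSCs sustain blood formation for a limited time and are thought to enter the cycle more readily. A cell that enters the cycle transcribes the enzymes of DNA replication in S phase and then the cyclins, kinases and spindle proteins of G2 and mitosis. Immediate-early genes such as Egr1 and Fos are transcribed within minutes of a stimulus, are abundant in resting stem cells, and are also known to be induced while tissue is dissociated for sorting.

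The targeted gene was checked in every library. Ing4 (chr6:125039760-125049265, mm10) had 247, 162 and 247 counts in LT-HSCs, ST-HSCs and MPPs of WT mice, against 0, 24 and 76 in those of ING4-/- mice. It failed the count minimum and was not tested. Total counts were 7839326 and 8047002 in the WT LT-HSC and ST-HSC libraries and 35596876 and 37811937 in the ING4-/- libraries. Of the 49315 genes, 36082 and 41347 held a count in the WT LT-HSC and ST-HSC libraries, against 14680 and 15466 in those of ING4-/-. The 1429 olfactory and vomeronasal receptor genes, which blood cells should not transcribe, held 22.4 counts for each kb of exon in the WT LT-HSC library and 22.7 in the WT ST-HSC library, against 0.0853 and 0.0694 in ING4-/-. At that density background would make up 33.4% and 33.1% of the WT counts. The level was thus nearly the same in the pair of WT libraries that the comparison sets against each other, and for some genes the ratio after subtraction is given beside the result.

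The sort markers followed the gates in part. Cd34, which encodes the surface sialomucin that separated the populations, was at 152 CPM (counts scaled to library size, TMM-normalised) in WT LT-HSCs and 326 in WT ST-HSCs, and at 295 and 672 in the ING4-/- libraries. The LT-HSC and ST-HSC libraries did not overlap, but the fitted log2 fold change of 1.15 ± 0.24 (SE) missed the threshold in edgeR's quasi-likelihood test (adjusted p = 0.093). Slamf1, which encodes CD150 and was gated as positive in both populations, was at 145 and 112 CPM in WT and at 108 and 26.4 in ING4-/- LT-HSCs and ST-HSCs. Kit, the stem cell factor receptor, was at 738 and 520.1 CPM in WT and at 681 and 505 in ING4-/-. Ly6a, which encodes Sca1, was at 68.6 and 46.1 CPM in WT and at 389.6 and 61 in ING4-/-. All 3 were lower in ST-HSCs in both genotypes without passing the test (adjusted p = 0.57, 0.645 and 0.281). Cd48, for which all cells were gated as negative, had 50 and 154 counts in the WT LT-HSC and ST-HSC libraries and 0 and 1077 in the ING4-/- libraries, and was not tested.

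Of the 9957 genes tested, 15 (0.151%) were called, with 11 (0.11%) higher and 4 (0.0402%) lower in ST-HSCs. A call required an adjusted p under 0.05 and the same direction in both genotypes. The genes higher in ST-HSCs were Pbk, Tk1, Birc5, Nkg7, Ccnb1, Nrm, Ccnb2, Top2a, Ccna2, Lig1 and Hmgb2, and those lower were Coq8a, Tsc22d1, Mmrn1 and Egr1. All but Nkg7, Nrm and Hmgb2 of the 11 encode proteins with known roles in replicating DNA or dividing the cell. The LT-HSC and ST-HSC libraries did not overlap in CPM for any of the 15, where 23.8% of all genes tested did not overlap.

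**Figure D1:**
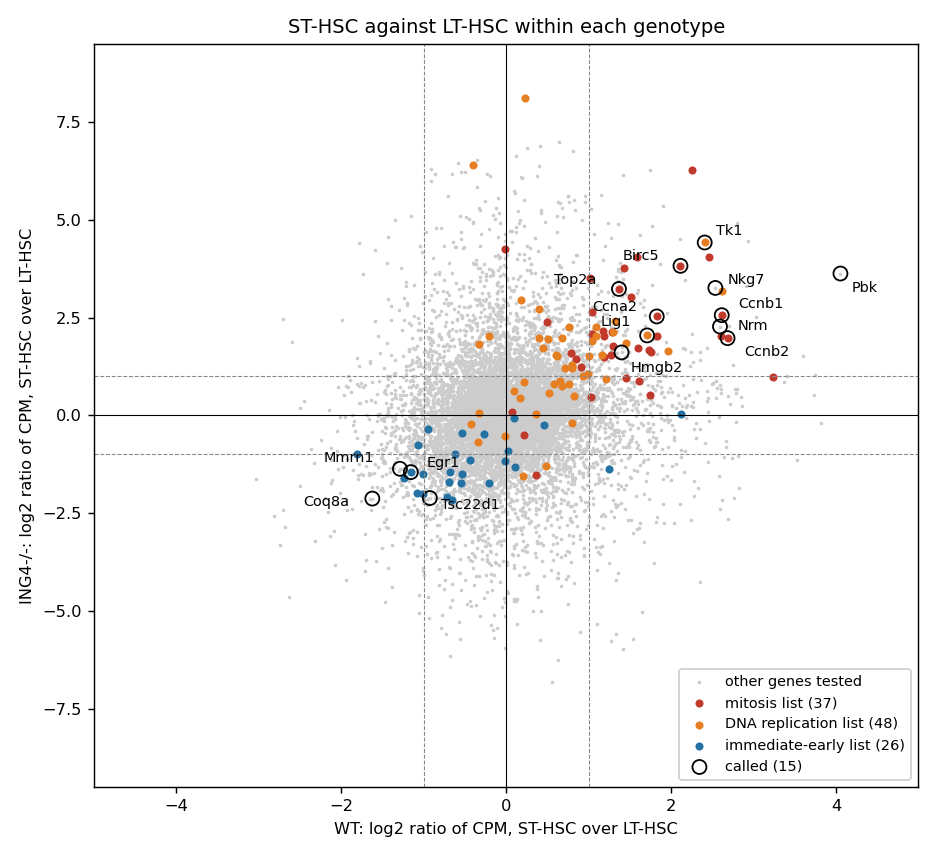
Each point is a gene, with the log2 ratio of ST-HSC over LT-HSC CPM in WT on the x axis and in ING4-/- on the y axis. Colours mark tested members of 3 gene lists, circles the 15 called genes, and dashed lines a 2-fold difference. The 11 genes called higher lie in the upper right with most of the mitosis list, and 1 of the 9957 genes falls outside the axes.

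The called genes included 3 cyclins. Ccnb1, cyclin B1, the partner of Cdk1 at entry into mitosis (chr13:100778650-100786570), was at 19.6 CPM in WT LT-HSCs and 121 in WT ST-HSCs, and at 64.5 and 381 in ING4-/-. It rose 6.03-fold in ST-HSCs (log2 fold change 2.59 ± 0.35 SE, adjusted p = 0.00935), by 6.12-fold in WT and 5.91-fold in ING4-/-. Ccnb2, cyclin B2 (chr9:70407692-70421547), was at 22.1 and 143 CPM in WT and at 51.8 and 204 in ING4-/-, and it rose 5.02-fold (adjusted p = 0.0477). Ccna2, cyclin A2, which acts in S phase and G2 (chr3:36564865-36572150), was at 34.7 and 123 CPM in WT and at 51.7 and 299 in ING4-/-. Its fitted rise was 4.55-fold (log2 2.19 ± 0.38, adjusted p = 0.0376). For each of the 3 cyclins, both ST-HSC libraries lay above both LT-HSC libraries.

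Other proteins of the dividing cell followed. Pbk, a kinase active in mitosis (chr14:65805837-65817822), was the highest of the called genes in fold change and had the smallest p. It was at 7.62 CPM in WT LT-HSCs and 128 in WT ST-HSCs, and at 19.6 and 244 in ING4-/-, a fitted rise of 14.4-fold (log2 3.84 ± 0.46, adjusted p = 0.00597). Birc5, survivin, a subunit of the chromosomal passenger complex (chr11:117849251-117855743), was at 27 and 117 CPM in WT and at 15 and 214 in ING4-/-, and rose 7.91-fold (adjusted p = 0.0421). Top2a, the topoisomerase that untangles sister chromatids (chr11:98992943-99024189), was at 139 and 359 CPM in WT and at 36.5 and 344 in ING4-/-. Its rise was 2.58-fold in WT and 9.41-fold in ING4-/-, so the size rested more on the ING4-/- pair than for the cyclins (fitted 4.94-fold, adjusted p = 0.0376). With background subtracted, the WT log2 ratio of Top2a was 1.65 in place of 1.37, that of Ccnb1 4.23 in place of 2.61, and that of Pbk 6.12 in place of 4.05. The WT LT-HSC library held 52 counts of Pbk and 134 of Ccnb1, where background alone would give 40.1 and 94.5. The subtracted ratios of Pbk and Ccnb1 thus rest on few counts.

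Both called genes of the DNA replication list act on precursors or nicks. Tk1, thymidine kinase, which makes thymidine monophosphate for S phase (chr11:117815526-117826092), was at 16 and 85.2 CPM in WT and at 12.8 and 276 in ING4-/- (fitted 10.9-fold higher in ST-HSCs, adjusted p = 0.0339). Its 109 counts in WT LT-HSCs were below the 116 counts that background alone would give over its exons, and after subtraction it fell under the count minimum and could not be tested. Lig1, the ligase that joins Okazaki fragments (chr7:13277283-13311433), was at 59.1 and 193 CPM in WT and at 61.8 and 255 in ING4-/-, and rose 3.68-fold (adjusted p = 0.0477).

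The remaining 3 called genes higher in ST-HSCs, like Pbk, belonged to neither cycle list. Hmgb2, a chromatin protein abundant in proliferating cells (chr8:57511907-57515999), was the most abundant of the 11, at 217 and 572 CPM in WT and 319 and 973 in ING4-/-, and rose 2.84-fold (log2 1.51 ± 0.23, adjusted p = 0.0284). Nrm, nurim, a protein of the inner nuclear membrane (chr17:35861318-35865402), was at 15.7 and 95.1 CPM in WT and at 56.6 and 274 in ING4-/-, and rose 5.4-fold (adjusted p = 0.0339). Nkg7, a granule membrane protein best known in cytotoxic lymphocytes and also transcribed in early myeloid progenitors (chr7:43437073-43438249), was at 11.4 and 66.8 CPM in WT and at 26.1 and 251 in ING4-/-. It rose 7.54-fold (log2 2.91 ± 0.49, adjusted p = 0.0339). Of the 15 markers listed for T and NK cells, 14 were at 0 in ING4-/- LT-HSCs and 13 in ING4-/- ST-HSCs. In WT they summed to 147 and 141 CPM.

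Ube2c, the ubiquitin-conjugating enzyme of the anaphase-promoting complex, missed the threshold. It was at 15.1 and 83.3 CPM in WT and at 9.56 and 160.3 in ING4-/- (log2 3.27 ± 0.63, adjusted p = 0.0557). Strand was not known for the counts, and exons shared with a gene on the opposite strand made up 22.8% of Ube2c, 13.6% of Nrm, 12.5% of Ccna2, 6.91% of Coq8a and 5.79% of Lig1.

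**Figure D2:**
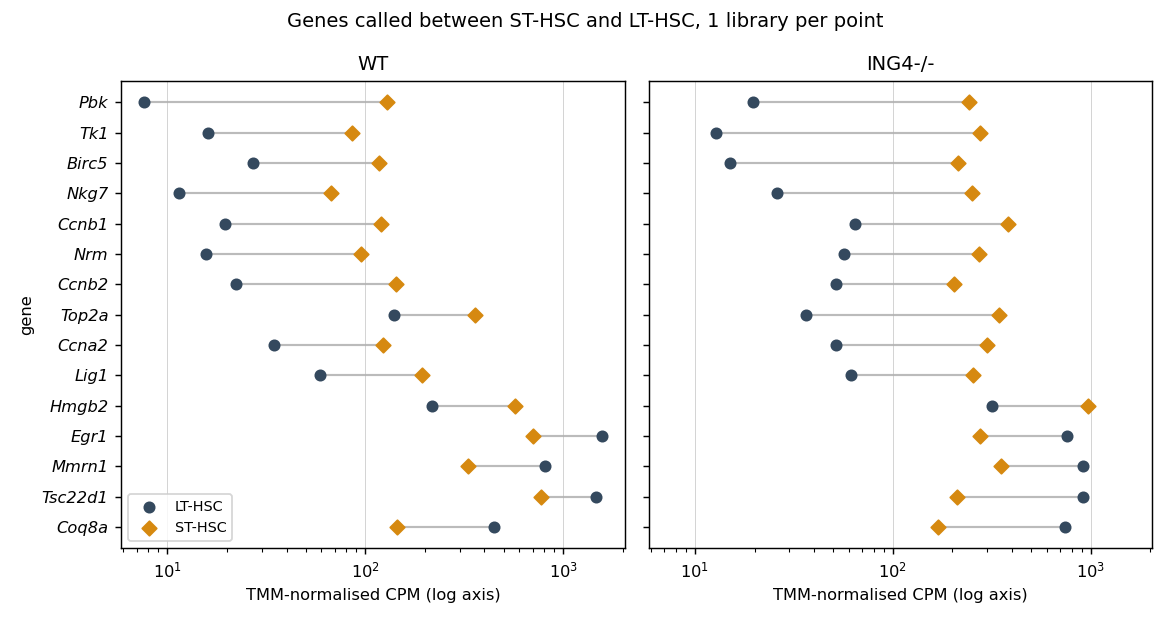
TMM-normalised CPM on a log axis for the 15 called genes, with WT on the left and ING4-/- on the right. Circles are the LT-HSC library and diamonds the ST-HSC library of each genotype, so every point is 1 library. Diamonds lie to the right of circles for the 11 upper genes and to the left for Egr1, Mmrn1, Tsc22d1 and Coq8a in both panels.

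Genes of G2 and mitosis share promoter elements, the CCAAT box and a TTTGAA-like element called the CHR, so the promoters of the called genes were read. The window was the 250 bases before the RefSeq transcription start (GRCm38.p6), and the box was searched on both strands, as CCAAT or as its complement ATTGG. The CHR was searched likewise, as TTTGAA or as its complement TTCAAA. The promoters of Ccnb1, Ccnb2, Hmgb2 and Top2a are shown because each of these genes higher in ST-HSCs held 2 or more CCAAT boxes. Capitals mark the matches to either element, and each promoter is written 5′ to 3′ on the strand of the gene. They lie at chr13:100786487-100786736 (minus strand), chr9:70421555-70421804 (minus strand), chr8:57511593-57511842 (plus strand) and chr11:99024190-99024439 (minus strand).
Ccnb1: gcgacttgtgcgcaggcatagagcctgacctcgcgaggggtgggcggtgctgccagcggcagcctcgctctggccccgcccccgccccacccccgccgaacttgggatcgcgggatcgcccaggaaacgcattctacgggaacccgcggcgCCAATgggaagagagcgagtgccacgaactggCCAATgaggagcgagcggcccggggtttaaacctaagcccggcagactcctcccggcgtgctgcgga
Ccnb2: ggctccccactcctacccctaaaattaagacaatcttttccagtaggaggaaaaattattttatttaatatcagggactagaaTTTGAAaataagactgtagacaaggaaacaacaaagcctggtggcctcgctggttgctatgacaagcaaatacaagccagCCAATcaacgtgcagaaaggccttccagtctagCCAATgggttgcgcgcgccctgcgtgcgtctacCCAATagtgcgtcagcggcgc
Hmgb2: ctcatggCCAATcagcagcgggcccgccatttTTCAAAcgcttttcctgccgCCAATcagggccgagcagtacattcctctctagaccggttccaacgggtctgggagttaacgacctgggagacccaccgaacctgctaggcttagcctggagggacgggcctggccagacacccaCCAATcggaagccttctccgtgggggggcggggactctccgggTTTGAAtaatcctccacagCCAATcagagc
Top2a: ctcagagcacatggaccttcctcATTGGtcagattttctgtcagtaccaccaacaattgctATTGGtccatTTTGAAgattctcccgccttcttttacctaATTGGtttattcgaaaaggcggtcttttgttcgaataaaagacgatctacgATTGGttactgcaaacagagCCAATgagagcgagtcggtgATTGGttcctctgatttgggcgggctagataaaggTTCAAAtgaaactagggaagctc

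Ccnb1 held 2 matches, at 99 and 67 bases before the start, and Ccnb2 held 4, Hmgb2 6 and Top2a 8. Of the 11 genes called higher, 9 had a RefSeq promoter, and the CCAAT box was in 5 of them (55.6%) and the CHR in 3 (33.3%). Of the 4 called lower, 3 had a RefSeq promoter, and the CCAAT box was in all 3 and the CHR in 1 (33.3%). In Birc5, Tk1, Lig1 and Nrm neither element was in the window. Across the 54 genes of the mitosis list, chosen without regard to sequence, 46 had a promoter, and 34 of these (73.9%) held the CCAAT box and 17 (37.0%) both elements. Among genes tested with a promoter, 40.6% held the CCAAT box, 13.0% the CHR and 4.92% both. Over all 27025 genes with a RefSeq promoter the shares were 37.5%, 18.3% and 6.45%. The DNA replication list stood at 57.5% for the CCAAT box (23 of 40), HSC identity at 44.0% (11 of 25) and immediate-early at 38.5% (10 of 26). A gene with several starts was counted if any of its windows held the element, and these matches describe the sequence only.

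The mitosis list as a whole lay on the ST-HSC side. Of its 54 genes, 37 were tested, and 5 were called higher and 0 lower (edgeR, with 31 and 0 at an unadjusted p under 0.05, against 4.17% and 3.62% of all genes). The direction was higher in ST-HSCs in both genotypes for 34 of the 37, where 28.5% of all genes were, and 24 of them were past 2-fold in both genotypes, where 1.93% of all genes were. The median log2 fold change was 1.70 (1.37 in WT and 2.02 in ING4-/-), beside 0.02 over all genes tested. Cenpa, the centromeric histone, was at 19.2 and 117 CPM in WT and 39.2 and 159 in ING4-/-, and Spc24, a kinetochore protein, at 35.9 and 97 in WT and 17.1 and 233 in ING4-/-, without a call (adjusted p = 0.093 and 0.0973). The 3 exceptions in direction were Ttk, Pttg1 and Espl1. Cenpa, Spc24 and the exceptions were picked after their values were seen.

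Mki67, which encodes the proliferation antigen Ki-67, was at 66.4 and 182 CPM in WT and at 0.714 and 1.49 in ING4-/-, which is 23 counts of 35596876 and 50 of 37811937. Its log2 ratio was 1.45 in WT and 0.96 in ING4-/- (fitted 1.27 ± 0.58, adjusted p = 0.631). Cdkn1c, which encodes the cyclin-dependent kinase inhibitor p57 associated with stem cell quiescence, was at 6.89 and 4.15 CPM in WT and at 40.2 and 40.5 in ING4-/-. The WT values came from 47 and 28 counts, where background alone would give 45.7 and 46.4, so no difference could be read in WT at this depth. In ING4-/- the log2 ratio was 0.01, and 30.7% of its exons overlap a gene on the opposite strand.

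A further 17 mitosis genes failed the count minimum, and they failed it through the ING4-/- LT-HSC library. In that library 11 of the 17 had 0 counts, while the ING4-/- ST-HSC library held 313 to 8920 counts of these 11. Aurkb, the kinase of the chromosomal passenger complex, had 145 and 733 counts in WT LT-HSCs and ST-HSCs and 0 and 8920 in ING4-/-. Set against a floor of 3 counts in the LT-HSC library, it was at least 2851-fold higher in ING4-/- ST-HSCs. Kif11, the motor that drives the spindle poles apart, had 297 and 885 counts in WT and 0 and 4106 in ING4-/-, and Prc1, which bundles the central spindle, 208 and 1102 in WT and 0 and 3476 in ING4-/-. In WT, 16 of the 17 also had the higher CPM in ST-HSCs, with Anln as the exception at 67.6 and 46.2 CPM. These genes were named after their values were seen. Across all genes, 832 had 0 counts in ING4-/- LT-HSCs and 100 or more in ING4-/- ST-HSCs, and 554 showed the opposite, so a count of 0 beside a high count in these deep libraries was not particular to mitosis genes.

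Of the 50 DNA replication genes, 48 were tested, and 2 were called higher and 0 lower (27 and 0 at an unadjusted p under 0.05), where 0.11% of all genes were called higher and 4.17% were higher at that unadjusted p. In both genotypes 38 were higher and 3 lower in ST-HSCs, beside 28.5% and 27.3% of all genes, and 12 were past 2-fold higher, beside 1.93%. The list's median on the log2 scale was 1.06 (0.66 in WT and 1.51 in ING4-/-), and 0.66 without the ING4-/- LT-HSC library in a fit with the MPPs. Mcm7, a subunit of the replicative helicase, was at 212 and 426 CPM in WT and 245 and 697 in ING4-/- without reaching the threshold (adjusted p = 0.0716). Mcm6, of the same helicase, was at 312 and 618 CPM in WT and 502 and 1049 in ING4-/- (adjusted p = 0.093). Both were picked after their values were seen. The ST-HSC libraries were above the LT-HSC libraries for both helicase genes.

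**Figure D3:**
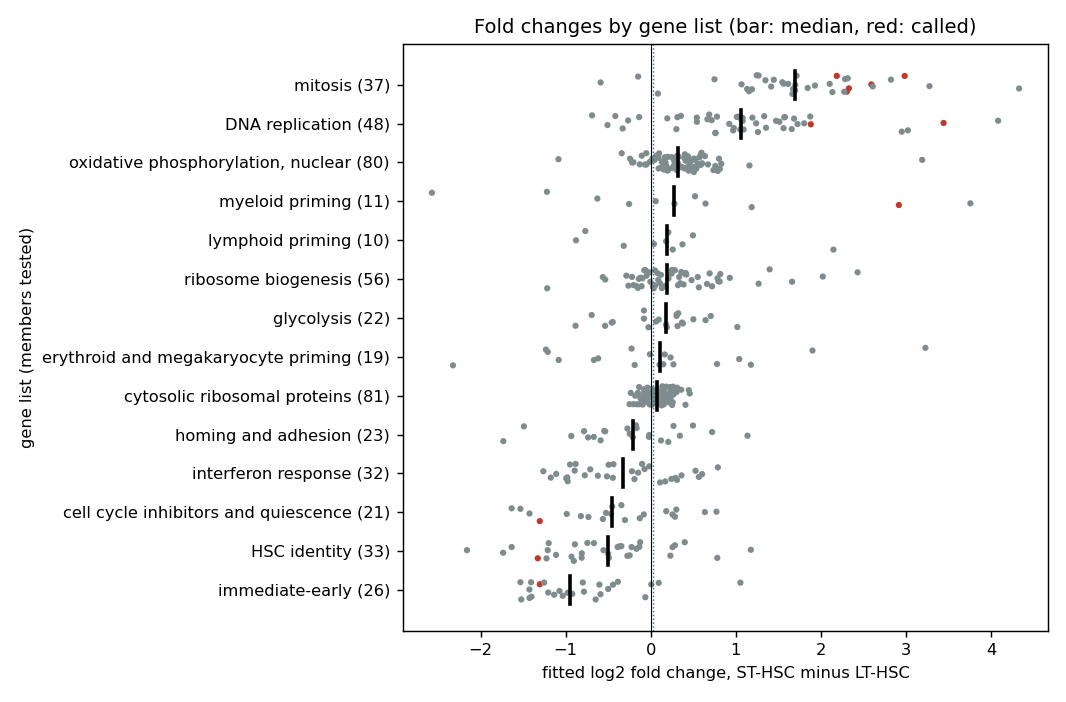
Fitted log2 fold change of ST-HSC minus LT-HSC on the x axis for the tested members of 14 gene lists, with black bars at list medians, called members in red and a dotted line at the median of all genes tested (0.02). The mitosis list has its median at 1.70 and DNA replication at 1.06, while HSC identity and immediate-early are at -0.50 and -0.95.

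The 4 genes lower in ST-HSCs had no single known role. Coq8a, a mitochondrial atypical kinase needed for coenzyme Q synthesis (chr1:180165238-180199602), was at 447 and 145 CPM in WT LT-HSCs and ST-HSCs and at 737 and 168 in ING4-/-. It fell 3.68-fold (log2 -1.88 ± 0.26, adjusted p = 0.00935), by 3.08-fold in WT and 4.37-fold in ING4-/-. Mmrn1, multimerin, a carrier of factor V found in megakaryocytes, endothelium and stem cells (chr6:60924976-60989378), was at 809.6 and 331 CPM in WT and 911 and 353 in ING4-/-, a fall of 2.51-fold (log2 -1.33 ± 0.23, adjusted p = 0.0339). The fall of Mmrn1 was nearly the same in the 2 genotypes, at 2.44-fold and 2.58-fold. Tsc22d1, a leucine zipper regulator induced by TGF-beta (chr14:76414961-76507765), was at 1472 and 775 CPM in WT and 918 and 212 in ING4-/-, and fell 2.87-fold (adjusted p = 0.0442). It was the only called gene under 2-fold in a genotype, at 1.9-fold in WT. Egr1, an immediate-early transcription factor known to restrain stem cell cycling, was at 1569 and 704 CPM in WT and 754 and 276 in ING4-/-, and fell 2.47-fold (log2 -1.30 ± 0.22, adjusted p = 0.0339).

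A further 8 genes lay past 2-fold lower in both genotypes with the smallest p but missed the threshold (adjusted p = 0.0557 to 0.104). Sult1a1, a cytosolic sulfotransferase, was at 129 and 30.8 CPM in WT and 214 and 44.7 in ING4-/- (log2 -2.16 ± 0.42). Tns2, a focal adhesion protein, was at 59.1 and 8.74 CPM in WT and 142 and 14.2 in ING4-/- (log2 -3.04 ± 0.64), and its 59 counts in WT ST-HSCs were below the 108 that background would give. Gstm1, a glutathione transferase with close paralogs that could share reads, was at 301 and 129 CPM in WT and 421 and 159.9 in ING4-/-. The LT-HSC libraries were above the ST-HSC libraries for all 3. Art4, a blood group ADP-ribosyltransferase of the red cell surface, was at 321 and 92.9 CPM in WT and 180.2 and 76 in ING4-/-. Car1, the carbonic anhydrase of erythroid precursors, was at 201 and 24.4 CPM in WT and 99.9 and 32.4 in ING4-/-. The remaining 3, Ppp1r15a, Nr4a1 and Btg2, are immediate-early genes.

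Egr1 was 1 of 26 immediate-early genes tested, of 31 found. In both genotypes 20 were lower in ST-HSCs and 1 was higher, where 27.3% of all genes were lower, and 5 were past 2-fold lower, where 1.83% of all genes were. The list had 1 called lower and 0 higher, where 0.0402% and 0.11% of all genes were. At an unadjusted p under 0.05, 12 were lower and 0 higher, beside 3.62% and 4.17% of all genes. Its median log2 fold change was -0.95 (-0.58 in WT and -1.34 in ING4-/-), and -0.59 without the ING4-/- LT-HSC library in a fit with the MPPs. Ppp1r15a, a phosphatase subunit of the stress response, was at 1129.8 and 562 CPM in WT and 335 and 118 in ING4-/- (log2 -1.25 ± 0.24, adjusted p = 0.0557). Nr4a1, an orphan nuclear receptor linked to stem cell quiescence, was at 309 and 146 CPM in WT and 254 and 64.3 in ING4-/- (adjusted p = 0.093). Btg2, an antiproliferative gene, was at 222 and 94.1 CPM in WT and 264 and 86.8 in ING4-/- (adjusted p = 0.104). For Nr4a1 and Btg2, LT-HSC and ST-HSC libraries did not overlap, while for Ppp1r15a the WT ST-HSC library lay above the ING4-/- LT-HSC library. Among members not tested, Hspa1a, an inducible heat shock gene, had 1 and 8 counts in WT and 1528 and 199 in ING4-/- LT-HSCs and ST-HSCs. Egr2 went the other way in ING4-/-, with 23 and 9 counts in WT and 0 and 355 in ING4-/-. Hspa1a and Egr2 were picked after their values were seen. The part of tissue handling in these levels was not tested.

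The 25 cell cycle inhibitors and quiescence genes, of which 21 were tested, held the same called gene, Egr1, with Nr4a1 and Btg2 also members, where 0.0402% of all genes were called lower. In both genotypes 10 were lower and 3 higher in ST-HSCs, beside 27.3% and 28.5% of all genes. The median was -0.45 on the log2 scale (-0.22 in WT and -0.72 in ING4-/-). It changed sign, to 0.05, without the ING4-/- LT-HSC library in the fit with the MPPs, and was -0.77 without the WT LT-HSC library.

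Of 34 HSC identity genes, 33 were tested and 1, Mmrn1, was called lower, with 0 called higher, where 0.0402% of all genes were called lower. In both genotypes 19 were lower in ST-HSCs and 3 higher, beside 27.3% and 28.5% of all genes, and 4 were past 2-fold lower, beside 1.83%. At an unadjusted p under 0.05, 11 were lower and 2 higher, beside 3.62% and 4.17%. The list's median on the log2 scale was -0.50 (-0.37 in WT and -0.77 in ING4-/-), with -0.28 without the ING4-/- LT-HSC library and -0.79 without the WT LT-HSC library. Vwf, von Willebrand factor, was at 208 and 99.9 CPM in WT and 239 and 92.9 in ING4-/- (adjusted p = 0.213), and Procr, the endothelial protein C receptor used to purify stem cells, at 75.8 and 28.7 in WT and 129 and 30.9 in ING4-/- (adjusted p = 0.406). Both were picked after their values were seen. Itga2b, CD41, went the other way, at 172 and 329 CPM in WT and 187 and 498 in ING4-/- (log2 1.18 ± 0.27, adjusted p = 0.111).

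**Figure D4:**
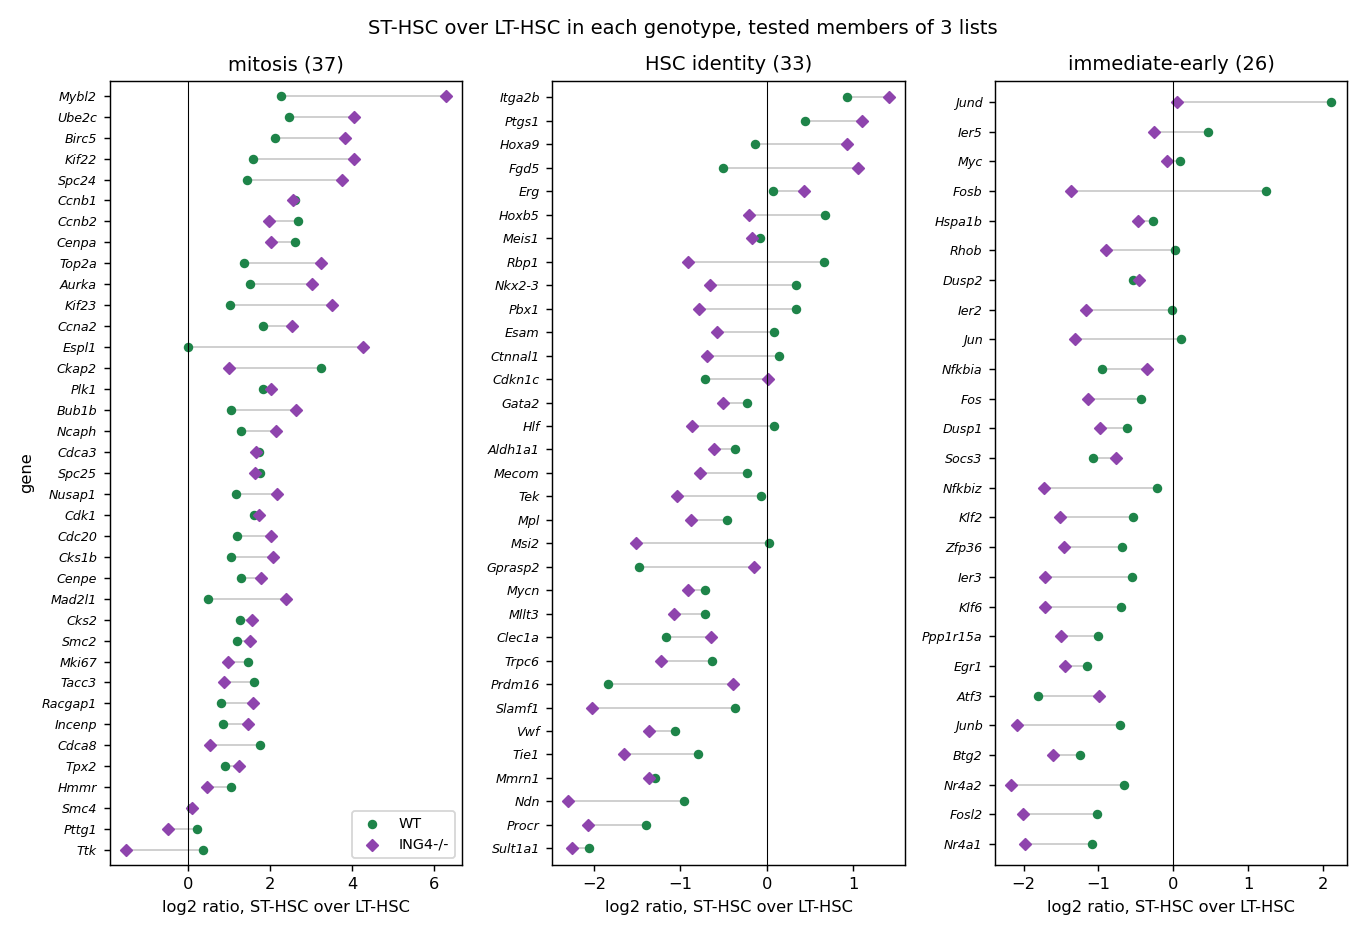
Log2 ratio of ST-HSC over LT-HSC CPM in WT (circles) and ING4-/- (diamonds) for each tested gene of the mitosis (37), HSC identity (33) and immediate-early (26) lists, ordered by fitted fold change, with 1 library per population and genotype. Both symbols lie above 0 for 34 mitosis genes, and below 0 for 19 HSC identity and 20 immediate-early genes.

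Lineage genes were mixed. Of 25 myeloid priming genes 11 were tested, with Nkg7 called higher and 0 called lower (median log2 fold change 0.28). Over all genes 0.11% were called higher. In both genotypes 5 were higher and 3 lower in ST-HSCs, beside 28.5% and 27.3% of all genes. Past 2-fold were 2 higher and 2 lower, beside 1.93% and 1.83%. At an unadjusted p under 0.05, 2 were higher and 1 lower, beside 4.17% and 3.62%. Mpo, myeloperoxidase, picked after its values were seen, was at 3.96 and 31 CPM in WT and 4.19 and 95 in ING4-/-, without a call (log2 3.76 ± 0.88, adjusted p = 0.123). Elane, neutrophil elastase, had 3 and 70 counts in WT and 1 and 1590 in ING4-/- LT-HSCs and ST-HSCs and was not tested. Anxa3, also on the list and not tested, went the other way, with 214 and 173 counts in WT and 951 and 0 in ING4-/-. Elane and Anxa3 were picked after their values were seen. Of the 14 listed granulocyte markers, 6 were at 0 in each ING4-/- library, and their summed level was 132 and 111 CPM in WT and 68 and 34.4 in ING4-/-, so that sum was the lower in ST-HSCs, where Nkg7, Mpo and Elane were the higher.

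Of 28 erythroid and megakaryocyte priming genes 19 were tested, with 0 called by edgeR and a median of 0.10. At an unadjusted p under 0.05, 5 were higher and 3 lower, beside 4.17% and 3.62% of all genes. Pf4, platelet factor 4, was at 29.3 and 66.7 CPM in WT and 60.7 and 366 in ING4-/- (log2 1.90 ± 0.41, adjusted p = 0.093), and Gata1, the erythroid and megakaryocytic transcription factor, picked after its values were seen, at 2.49 and 83.9 CPM in WT and 37.7 and 114 in ING4-/- (adjusted p = 0.209). Both ST-HSC libraries lay above both LT-HSC libraries for these genes, opposite to Car1. The 12 markers listed for megakaryocytes and platelets, Pf4 and Itga2b among them, summed to 393 and 597 CPM in WT and 506 and 1206 in ING4-/-, with 2 at 0 in each ING4-/- library. In bulk samples, fewer cells of a type and less RNA per cell cannot be told apart.

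Of 23 lymphoid priming genes 10 were tested, with 0 called and a median of 0.19. At an unadjusted p under 0.05, 1 was higher and 1 lower, beside 4.17% and 3.62% of all genes. Runx3, a lymphoid transcription factor, was at 11.6 and 37.5 CPM in WT and 5.74 and 34.6 in ING4-/- (adjusted p = 0.583), and Bcl11a, needed for lymphoid fate, at 144 and 85.9 in WT and 159.9 and 79.4 in ING4-/- (adjusted p = 0.603). The 79 counts of Runx3 in WT LT-HSCs were below the 112 that background alone would give.

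The lists for metabolism, ribosomes, adhesion and interferon held 0 calls in edgeR, where 0.151% of all genes were called. At an unadjusted p under 0.05 in that test, 4.17% of all genes were higher and 3.62% lower in ST-HSCs. Oxidative phosphorylation had 80 of 85 nuclear genes tested, 53 higher and 4 lower in ST-HSCs in both genotypes (28.5% and 27.3% over all genes), 6 higher and 0 lower at an unadjusted p under 0.05, and a median of 0.32. Its members with the smallest p, Uqcrq of complex III and Atp5f1 of ATP synthase, had log2 fold changes of 0.79 ± 0.31 and 0.64 ± 0.26 (adjusted p = 0.545 and 0.57). Ribosome biogenesis (56 of 56 tested) had a median of 0.19 and 1 higher and 0 lower at that unadjusted p, with Nolc1, a nucleolar chaperone, at 1.40 ± 0.47 and Rrp1b, a nucleolar processing factor, at 1.27 ± 0.61 (adjusted p = 0.438 and 0.656). Cytosolic ribosomal proteins (81 of 84) had a median of 0.07, with 0 at an unadjusted p under 0.05, and Rpl39 and Rpl29, which have processed copies that can share reads, were at 0.46 ± 0.24 and 0.41 ± 0.24 (adjusted p = 0.68 and 0.712). Glycolysis (22 of 23) had a median of 0.18, 1 higher and 1 lower at that unadjusted p, with Aldoa at -0.54 ± 0.22 and Pgk1 at 0.70 ± 0.29 (adjusted p = 0.57 and 0.587). Homing and adhesion (23 of 28) had a median of -0.21 and 3 lower and 0 higher at that unadjusted p, with Icam1, an integrin ligand, at -1.49 ± 0.54 and Cd81, a tetraspanin, at -0.54 ± 0.22 (adjusted p = 0.495 and 0.57). Interferon response (32 of 36) had a median of -0.33, with 15 lower and 5 higher in both genotypes (27.3% and 28.5% over all genes). At that unadjusted p 2 were lower and 0 higher, with Oasl2 and Ifi44 at -1.26 ± 0.44 and -0.99 ± 0.43 (adjusted p = 0.473 and 0.621).

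Among the lists of markers of other marrow cells, edgeR called 0 genes. At an unadjusted p under 0.05, the megakaryocyte and platelet list had 2 of 5 tested higher (Pf4 and Itga2b). The B cell list had 1 of 4 tested lower (Cd74) and the other 5 lists 0. Over all genes the shares at that unadjusted p were 4.17% higher and 3.62% lower. The 18 endothelial and stromal markers summed to 511 and 472 CPM in WT and to 349.6 and 109 in ING4-/-, where 5 and 9 were at 0. In ING4-/- LT-HSCs the sum held 114 CPM of Sparc, a matrix protein, and 69 of Plvap, a protein of endothelial diaphragms, against 12.4 and 4.52 in ING4-/- ST-HSCs and 16.3 to 20.7 and 3.41 to 4.54 in WT. That library was also the higher for Mmrn1, Vwf and Procr, which endothelium transcribes too, and the part of such cells was not tested. B cell markers (14) summed to 328 and 255 CPM in WT and 383 and 149 in ING4-/-, with 9 at 0 in each ING4-/- library. Cd74 and H2-Aa, of antigen presentation, had fitted log2 fold changes of -1.40 ± 0.58 and -0.79 ± 0.70 (adjusted p = 0.574 and 0.824). Monocyte and macrophage markers (14) summed to 704 and 642 CPM in WT and 885 and 795 in ING4-/-, of which Lyz2 alone gave 496, 418, 846 and 764 CPM in the same order. Vcam1 had a fitted log2 fold change of -0.83 ± 0.66 (adjusted p = 0.805). Erythroid markers (9 found) summed to 85.9 and 96.2 CPM in WT and 134 and 264 in ING4-/-, with Hbb-bs, a hemoglobin chain with a close paralog, at 0.84 ± 0.90 on the log2 scale (adjusted p = 0.863). Klrb1c, the T and NK cell marker that was tested, was at -0.23 ± 0.75 (adjusted p = 0.963).

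The extent to which the genotypes shared the difference was also counted over all genes. The same direction was found for 5557 genes (55.8%), 2834 higher and 2723 lower in ST-HSCs, and the opposite direction for 4400. Past 2-fold in the same direction were 374 genes (3.76%), 192 higher and 182 lower, and these included 14 of the 15 called genes. Within WT alone 715 genes were more than 2-fold higher and 527 lower, and within ING4-/- alone 1758 and 1831. The SD of the log2 ratio over genes was 0.69 in WT and 1.42 in ING4-/-, and across the 9957 genes, which are not independent replicates and share their libraries, the ratios of the genotypes had a Pearson r of 0.13.

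MPPs, which follow ST-HSCs and were not part of the test, were described for the called genes, with 1 library per genotype. These genes were chosen for differing between the LT-HSC and ST-HSC libraries, which favours MPP values between them. No share over all genes is given beside the counts below. Of the 11 genes higher in ST-HSCs, all had more CPM in MPPs than in LT-HSCs in both genotypes, and in ING4-/- all 11 had less than in ST-HSCs. In WT 10 of 11 did, with Nkg7 as the exception. Ccnb1 was lower in MPPs than in ST-HSCs by a log2 ratio of -1.29 in WT and -1.86 in ING4-/-, and Birc5 by -1.47 and -1.14. The 4 genes lower in ST-HSCs were also below LT-HSCs in MPPs of both genotypes. Cd34 was higher in MPPs than in ST-HSCs, by 1.42 in WT and 1.12 in ING4-/-.

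The calls rested on 1 residual degree of freedom and on the spread shared between genes. The same edgeR test called 0 genes with size factors in place of TMM, and 0 without the WT LT-HSC, ING4-/- LT-HSC, WT ST-HSC or ING4-/- ST-HSC library in a fit with the MPPs, while DESeq2 called 129, the 15 among them.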

How the data were processed

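Bulk RNA-seq of sorted LT-HSCs and ST-HSCs was analysed in WT and ING4-/- mice. The authors deposited raw counts of reads per gene for each library, without normalization. Library construction, sequencing and first analyses were done by a company, and the aligner, counting program and strand setting are not given in the sources used here. The submitters' processing notes name mm10. Of 49315 gene identifiers, 49056 were found in GENCODE M21, which gave symbols and positions.

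From the counts, genes with 10 or more in all 4 libraries were fitted in edgeR 4.0.16 (R 4.3.3) with TMM, genotype as the block and population as the tested term. The quasi-likelihood F test had 1 residual degree of freedom, and p-values were adjusted by Benjamini-Hochberg over all genes tested. Each standard error (SE) was the size of the log2 fold change over the square root of the F statistic. Ratios within a genotype used log2 CPM with a prior count of 2. Fold changes are on the TMM scale, on which the median over all genes was 0.02 (log2). Background was counts per kb of exon over receptor genes. Intervals and floors (3 counts for a count of 0) cover counting error only, since reads carried no molecular identifiers. On simulated counts the fit recovered 180 of 200 changed genes with 10 false calls among 9957 genes. This was a self-test of the code, and its rates are no estimate for the calls in these data.

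The members and lists were chosen with earlier results of these data known. Named genes were the sort markers and Ing4, the 12 genes with the highest and the 12 with the lowest fold changes among those called, filled by the smallest p among protein-coding genes past 2-fold in both genotypes, every called list member (the 4 with the smallest p beyond 4, otherwise the 2 with the smallest p), Mki67 and Cdkn1c. Others are said to be picked after their values were seen. Alternatives were other normalizations, DESeq2 1.42.0, other filters, no block, all 6 libraries, background subtraction, thinning and leaving out each library. Promoter sequences are from RefSeq (GRCm38.p6).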

Additional observations from a re-analysis of the deposited data

Results flagged for a closer look

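For 4 of the named genes the log2 ratios of the genotypes had opposite signs, and the difference between genotypes was not tested, since each pair is 1 library against 1. The log2 ratio of ST-HSC over LT-HSC for Cdkn1c was -0.72 in WT, from counts near or below background, and 0.0111 in ING4-/-, which is close to 0. For Hemgn, an erythroid nuclear protein, it was -0.0816 in WT, also close to 0, and 1.76 in ING4-/-. For Ngp, a neutrophil granule protein, it was -0.63 in WT and 0.94 in ING4-/-, from 144 and 92 counts in WT and 33 and 69 in ING4-/-. For S100a9, a calcium-binding protein of neutrophils, it was 0.81 in WT and -1.05 in ING4-/-, from 24 and 42 counts in WT and 534 and 267 in ING4-/-. Over all genes tested, 4400 of 9957 had opposite signs.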

How the results depend on the processing

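The count of calls (15, with 11 higher and 4 lower in ST-HSCs) depended on the processing. The called genes kept their direction wherever they were tested, which was all 15 under each alternative but background subtraction, where 14 were tested. A call already required the same direction in both genotypes of these libraries. That choice favoured a kept direction, which is therefore no further evidence. edgeR called 0 genes with DESeq2 size factors (629 at an unadjusted p under 0.05), with filterByExpr (31530 genes tested, 451), with no filter (43039 tested, 376), with all 6 libraries (745) and without the genotype as replicate block (99). It called 1 (1 higher, 0 lower) with upper-quartile normalization, 76 (51 and 25) at a minimum of 50 counts, 88 (51 and 37) with background subtracted and 53 (35 and 18) with the ING4-/- libraries thinned to WT depth. DESeq2 called 129 (82 and 47). The prior degrees of freedom that edgeR estimated were 13.9 in the reported fit, 7.16 with DESeq2 size factors, 29.7 at a minimum of 50 counts and 27.8 with background subtracted. Leaving out 1 library in a fit with the MPPs, where a population left with 1 library is assumed to vary like the others, gave 0 to 24 calls (0 to 18 higher, 0 to 6 lower), with 0 for each of the 4 LT-HSC and ST-HSC libraries, 24 without WT MPP and 3 without ING4-/- MPP. No pairing beyond genotype was possible, since every sample is replicate 1 of its group.

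Genes past 2-fold in both genotypes (374, with 192 higher and 182 lower) were 249 at a minimum of 50 counts (100 lower), 285 lower with background subtracted, and 1312 at a fold of 1.5 (656 higher and 656 lower). Of the genes named, Ngp changed sign without the block (-0.50) and with all 6 libraries (-0.13), and the log2 fold change of S100a9 was 0.0701 with background subtracted in place of -0.15. On leaving out a library, the log2 fold change ranged from -1.05 to 0.81 for S100a9 (0.28 without ING4-/- ST-HSC), from -2.77 to 1.72 for Vcam1, from -4.70 to 1.43 for Plvap, from -1.21 to 1.96 for Ngp (-0.61 without WT ST-HSC), from -3.50 to 0.0481 for Sparc, from -0.81 to 0.11 for Cdkn1c and from -0.49 to 0.0390 for Klrb1c. The cause was not tested. List medians were computed under 14 alternatives, not with filterByExpr or no filter. On leaving out a library, that of mitosis ranged from 1.32 to 2.05, DNA replication from 0.66 to 1.40, immediate-early from -1.31 to -0.59, HSC identity from -0.79 to -0.28 and oxidative phosphorylation from 0.21 to 0.48. The median changed sign among these fits for cell cycle inhibitors and quiescence (-0.77 to 0.05), homing and adhesion (-0.59 to 0.08), lymphoid priming (-0.13 to 0.52), erythroid and megakaryocyte priming (-0.10 to 0.14) and cytosolic ribosomal proteins (-0.09 to 0.20), the last also without the block (-0.03). With 1 library per population and genotype, no difference within a genotype could be tested, and genes near background in WT, or at 0 in ING4-/- LT-HSCs, were beyond the test.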
